A study of Monodelphis domestica with 2 samples.

Results

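Microglia of the gray short-tailed opossum, from its primary visual cortex (V1), are described here from single-nucleus RNA sequencing. They were taken as the nuclei that the deposited annotation assigns to the subclass Micro, which gave 723 of 8267 non-neuronal nuclei and of 32764 nuclei with a subclass. The data came from 2 adult males that form 1 group, animal 1 aged 1.5 years and animal 2 aged 2 years, each contributing V1 pooled from both hemispheres. The sorted nuclei of each animal were loaded into 2 wells, which gave libraries 1A and 1B for animal 1 and 2A and 2B for animal 2. The experimenter differed between the animals, so that animal, age and handling cannot be told apart, and the 2 libraries of an animal are technical replicates. Nuclei had been frozen as tissue, isolated and sorted for a DNA dye, so the values describe nuclear RNA without the cytoplasm or the fine processes of the cell.

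Microglia are the resident macrophages of the brain parenchyma. They derive from the yolk sac, depend on signalling through the CSF1 receptor for survival and on TGF-beta for their mature state, and carry few of the genes of the neuroectodermal glia around them. Their processes survey the tissue with purinergic and chemokine receptors, engulf synapses and dead cells with the help of complement and of phosphatidylserine receptors, and signal through immunoreceptor tyrosine kinases. The other non-neuronal subclasses in the annotation were oligodendrocytes (OD), astrocytes (Astro), oligodendrocyte precursor cells (OPC) and endothelial nuclei (Endo), and microglia were described against these 4, summed per animal.

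Animal 1 had 332 microglial nuclei and animal 2 had 391. By library, 175 came from 1A, 157 from 1B, 174 from 2A and 217 from 2B. Microglia made up 7.08% of the non-neuronal nuclei of animal 1 (exact 95% binomial interval 6.36 to 7.85%) and 10.9% of those of animal 2 (9.92 to 12.0%), a mean of 9.0% ± 2.72 (SD, n = 2). The intervals of the animals did not overlap, while the libraries within each animal did not differ beyond sampling (two-sided Fisher's exact test, p = 0.190 for animal 1 and 0.829 for animal 2, Benjamini-Hochberg adjusted 0.381 and 0.829). Of all labelled nuclei, 2.07% in animal 1 and 2.34% in animal 2 were microglia. Intervals, here and below, cover counting error only. The deposited annotation divided the subclass no further: all 723 nuclei carried the single type Micro.

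Microglial nuclei were shallow. Their median was 1429.5 UMIs and 946 genes in animal 1 and 1483 UMIs and 997 genes in animal 2, where a UMI is a counted RNA molecule. Oligodendrocytes had medians of 1924 and 1909, astrocytes 2522 and 2781, OPC 2551 and 2619 and endothelial nuclei 1415 and 1402.5 UMIs in animals 1 and 2. Passing nuclei held at least 701 genes, and 17.3% of microglial nuclei lay under 800 genes, against 12.97% of oligodendrocytes, 2.15% of astrocytes, 1.86% of OPC and 23.1% of endothelial nuclei. The summed microglial counts came to 530271 UMIs in animal 1 and 627148 in animal 2, whereas only 29 and 36 endothelial nuclei were present, with 48514 and 57864 UMIs. A gene with no UMI in either endothelial sum can therefore still be present at up to 28.2 CPM (the UMIs of a gene per 1000000 UMIs of the sum), the level that 3 UMIs over both animals give. Between 16 and 30 barcodes were shared by any 2 libraries, and in none of these pairs were both microglial. Doublet calls by the authors' caller fell on 20 of the 723 nuclei (2.77%).

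The markers of the subclass were high in both animals. The nuclei were labelled from these same counts, so the levels describe the label and are no test of it. CSF1R, the CSF1 receptor on which microglia depend, stood at 910.5, 1072, 1077 and 968 CPM in libraries 1A, 1B, 2A and 2B. In oligodendrocytes, astrocytes and OPC it reached at most 5.42 CPM in any animal, and no UMI was counted in endothelial nuclei. CX3CR1, the fractalkine receptor, was at 317, 393, 317 and 345 CPM in the same order and at most 2.00 CPM in those 3 subclasses. Both genes thus kept all 4 microglial libraries far above every other non-neuronal sum.

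P2RY12, the ADP receptor that directs process movement, was at 156, 173, 106 and 108 CPM in the 4 libraries, and 164 and 107 CPM in animals 1 and 2. Its next highest level was 5.69 and 6.22 CPM in OPC. LYN, a Src family kinase, was at 786, 807, 836 and 866 CPM in microglia, and alone of the 4 was also found in endothelial nuclei, at 186 and 432 CPM. Over all 18 subclasses, neurons included, each of the 4 markers had its highest mean level in microglia. Against astrocytes the fitted log2 fold changes were 7.29 ± 0.21 for CSF1R, 7.88 ± 0.36 for CX3CR1 and 6.03 ± 0.23 for LYN, and for P2RY12, with 1 UMI in astrocytes, 4.24 ± 0.36 against OPC (± SE, edgeR's quasi-likelihood test, n = 2 animals).

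**Figure D1:**
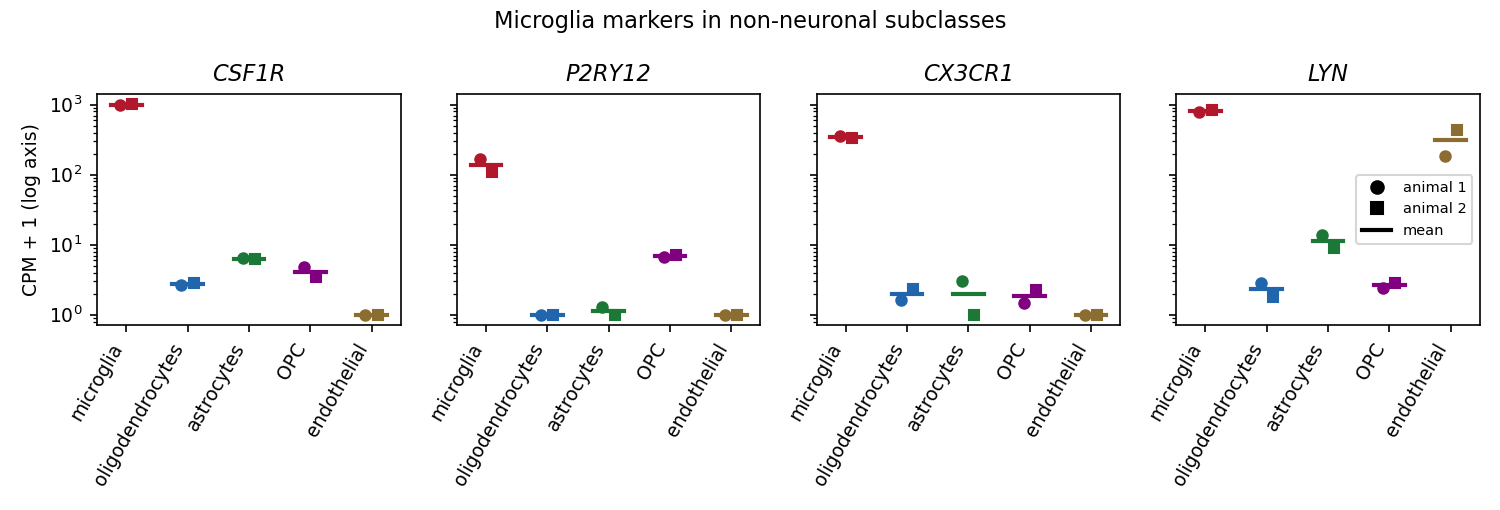
CPM + 1 on a log axis of the 4 microglia markers in the 5 non-neuronal subclasses, 1 point per animal, with a bar at the mean of the 2 animals. In microglia CSF1R lies at 986 and 1020.5 CPM and P2RY12 at 164 and 107 CPM in animals 1 and 2, and LYN is the only one of the 4 with a high point outside microglia, at 186 and 432 CPM in endothelial nuclei.

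Single nuclei held these markers unevenly, as their depth allows. With each nucleus thinned to 1000 UMIs, and the 22 shallower microglial nuclei left out, 62.5% of microglia had a UMI of CSF1R, 52.4% of LYN, 29.0% of CX3CR1 and 12.3% of P2RY12. Without thinning the shares were 75.0%, 66.5%, 40.5% and 19.1%. Oligodendrocytes, which should lack all 4, had a UMI of CSF1R in 0.173%, of LYN in 0.198% and of CX3CR1 in 0.0741% of thinned nuclei, and none of P2RY12. Of the 723 unthinned microglial nuclei, 38 held all 4 markers, 169 held 3, 311 held 2, 173 held 1 and 32 held none. Among the 7544 other labelled non-neuronal nuclei, 1 held 3 or more.

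Other genes were found in nearly every microglial nucleus. ARHGAP15, a GTPase-activating protein for RAC, had a UMI in 97.6% of thinned microglia against 0.445% of oligodendrocytes and 1.05% of astrocytes. TBXAS1, the thromboxane synthase, was seen in 87.3%, RGS10, a regulator of G protein signalling, in 85.7% and DOCK2, a RAC activator of leukocytes, in 81.6%. In oligodendrocytes these 3 were seen in 0.148%, 0.124% and 0.667% of thinned nuclei. Each of these genes therefore marked more single nuclei than the 4 classical markers did.

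**Figure D2:**
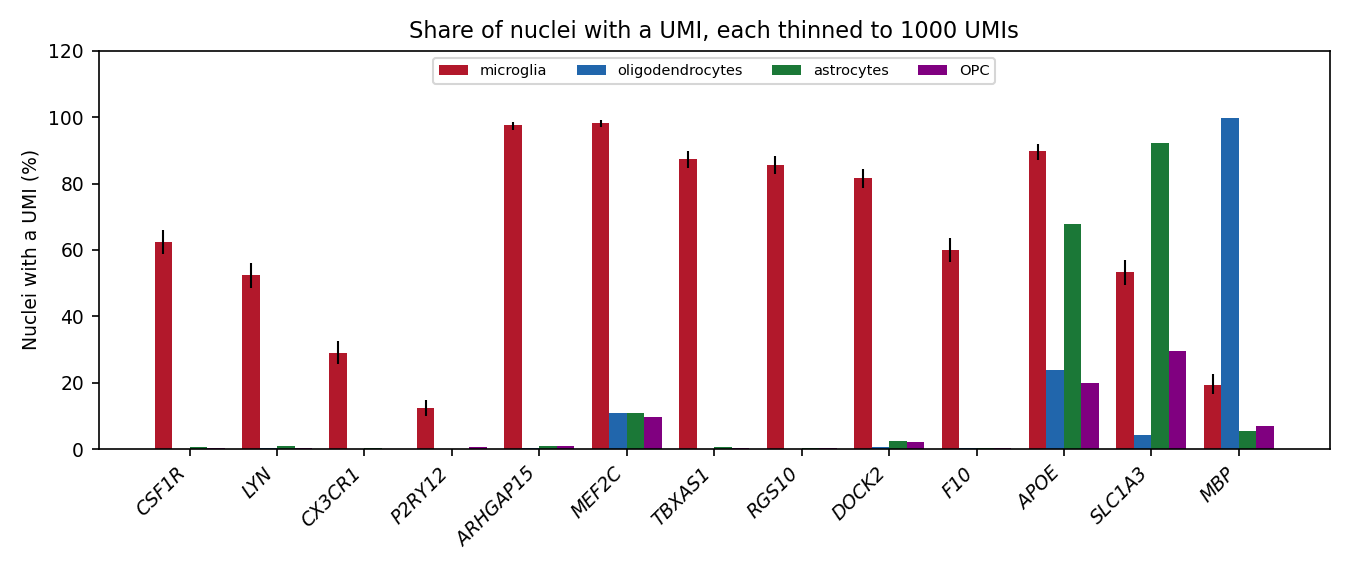
Percent of nuclei with at least 1 UMI of each gene after every nucleus was thinned to 1000 UMIs, in 4 non-neuronal subclasses (701 microglial nuclei; endothelial nuclei are left out for their number); black lines are exact 95% binomial intervals for microglia. ARHGAP15 is seen in 97.6% and P2RY12 in 12.3% of microglia, while APOE and SLC1A3 are shared with astrocytes, at 67.7% and 92.2%.

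Microglia were then compared with the mean of the other 4 non-neuronal subclasses in 1 fit over the 10 sums. Of 13483 genes tested, 29.7% were called at an adjusted p under 0.05, 2493 (18.5%) higher and 1509 (11.2%) lower in microglia. The subclass labels come from clusters of the same counts, so these calls say how evenly a level held in both animals and not that the subclass differs. With endothelial nuclei left out of the fit, 2691 genes were higher and 2948 lower of 13656 tested, so the split between directions rests on those 65 nuclei. Pair by pair, 38.4% of genes were called against oligodendrocytes, with 2578 higher (19.1%) and 2606 lower (19.3%). Against astrocytes 42.1% were called, 2664 higher (19.8%) and 3012 lower (22.3%). Against OPC 41.9% were called, 2527 higher (18.7%) and 3126 lower (23.2%). Against endothelial nuclei 13.8% were called, 1160 higher (8.6%) and 696 lower (5.16%), a balance that turned under the DESeq2 test, to 723 higher and 899 lower, and was 863 to 747 with DESeq2 size factors in edgeR. In all 4 pairwise tests at once, 690 genes were higher (5.12%) and 126 lower (0.935%), while 2258 (16.7%) had a higher CPM in microglia than in each other sum of the same animal, called or not. The median log2 fold change of all genes tested was 0.13 against the mean of the 4, -0.09 in the same comparison under the DESeq2 test and -0.13 without endothelial nuclei. Against endothelial nuclei it was 0.54, which became 0.33 with DESeq2 size factors and 0.10 under the DESeq2 test.

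The 20 genes named by the rule for higher genes were those with the largest fitted fold change among those that carry a symbol, reach 20 CPM in microglia of both animals and lie higher there than in each other subclass of the same animal; 1055 genes met it. All 20 also had their highest mean over the 18 subclasses in microglia. In 19 of them no UMI was counted in endothelial nuclei, so that their fitted fold depends on how the fit treats a 0, and levels are given instead. They are given by role.

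RGS18, a regulator of G protein signalling of blood cells, was at 349, 397, 360.2 and 465 CPM in libraries 1A, 1B, 2A and 2B and at most 0.57 CPM in oligodendrocytes, astrocytes and OPC. RGS10 stood at 2231 and 2299 CPM in animals 1 and 2 against at most 8.10 CPM there. PLCB2, a phospholipase C that acts downstream of G proteins, was at 332 and 392 CPM, and PIK3CG, the G protein-coupled PI3-kinase catalytic subunit, at 151 and 187 CPM. Each of these 4 carries or limits signals of G protein-coupled receptors, and each had its highest level in microglia in both animals.

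PTPRC, the leukocyte common antigen CD45, was at 409 and 574 CPM in the animals and at most 1.71 CPM in oligodendrocytes, astrocytes and OPC. PTPN6, the phosphatase SHP-1 that ends immunoreceptor signalling, was at 209 and 222 CPM. CD180, a Toll-like receptor relative first described in B cells, was at 332 and 320.5 CPM, and TNFSF8, the CD30 ligand, at 119 and 140.3 CPM. NRROS, which holds latent TGF-beta on the microglial surface, was at 153 and 129 CPM.

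ITGAL, the alpha chain of the integrin LFA-1, was at 167, 165, 152 and 145 CPM in the 4 libraries, with at most 0.405 CPM in the 3 larger glial subclasses. APBB1IP, an adaptor that activates integrins, was at 694 and 702 CPM. PLEK, the platelet and leukocyte PKC substrate, was at 190.5 and 210.5 CPM, FGD2, a CDC42 activator, at 313 and 409.8 CPM and ADAP2, an ARF6 GTPase-activating protein, at 529.9 and 577 CPM. These 5 act in adhesion or on the actin skeleton of leukocytes, and none had a UMI in endothelial nuclei.

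F10, which encodes coagulation factor X, was at 1059.8, 1056, 985 and 1051 CPM in the 4 libraries and 60.1% of thinned microglia held a UMI of it, with at most 5.26 CPM in oligodendrocytes, astrocytes and OPC. PDC, known as phosducin of photoreceptors, was at 637, 554, 615 and 601 CPM against at most 4.05 CPM. SUSD3, a sushi domain protein, was at 298 and 225 CPM. CSF1R and CX3CR1 were also among the 20. The 4 libraries agreed closely for F10 and PDC, and neither gene had a UMI in endothelial nuclei.

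**Figure D3:**
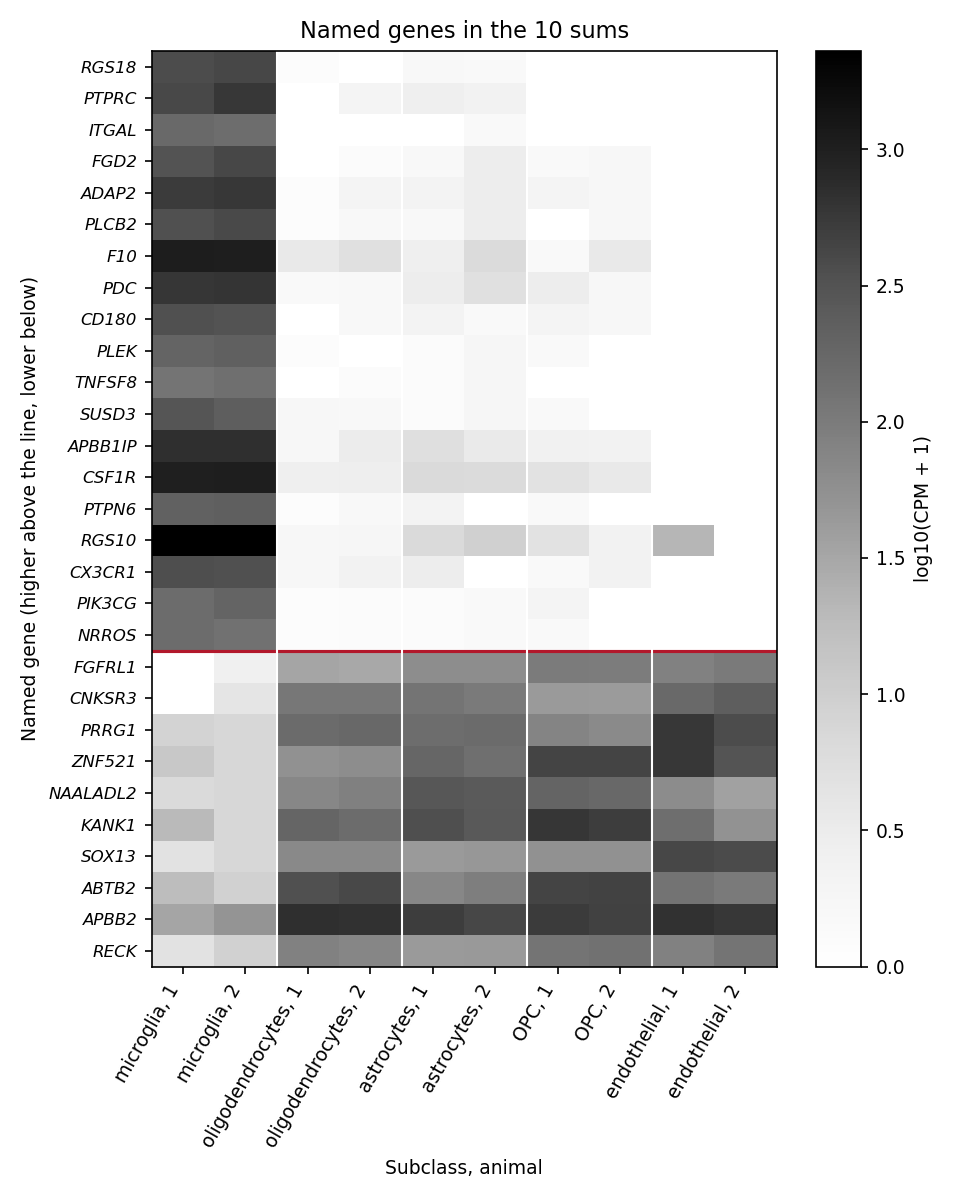
Log10 of CPM + 1 for 19 of the 20 named genes higher and the 10 named genes lower in microglia, in each of the 10 sums (5 subclasses, 2 animals). The higher block is dark in the 2 microglial columns, apart from 1 UMI of RGS10 in endothelial nuclei of animal 1, such as RGS18 at 372 and 415 CPM, and the lower block is pale there, such as CNKSR3 at 0 and 3.19 CPM.

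Gene lists of microglial biology were described next by how many of their members were called, against 18.5% called higher and 11.2% lower over all genes tested. Only genes with a symbol in the files could be matched, which was 322 of 504 listed symbols. The low-count filter admits a gene with enough counts in a single subclass, so genes found in microglia alone were tested. Members low in every subclass were left out, so shares of tested members depend in part on the filter. With no filter, 12 of 22 purinergic, chemokine and lipid receptors and 5 of 18 complement genes were higher, against 2334 of 26085 genes. List medians are log2 fold changes against the mean of the 4, given as fitted and then with every level under 3 UMIs set to 3 UMIs (the floor), where the median of all genes tested was -0.09.

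Of the further identity genes of microglia, 10 were tested and all 10 were called higher (median log2 fold change 7.31, or 5.39 at the floor). Beside PTPRC and APBB1IP they included INPP5D, the phosphatase SHIP1, at 754 and 657 CPM in animals 1 and 2, GPR34, a lysophosphatidylserine receptor, at 107 and 78.1 CPM and P2RY13, another ADP receptor, at 37.7 and 23.9 CPM. SALL1, a transcription factor of mature microglia, was at 143 and 90.9 CPM and was less exclusive, with 41.7 and 38.0 CPM in oligodendrocytes. CTSS, a cathepsin of myeloid cells, was at 54.7 and 60.6 CPM.

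Myeloid transcription factors were called higher in 16 of 20 tested and lower in 1 (median 3.10, floor 3.02). SPI1, the PU.1 factor that founds the myeloid lineage, was at 102 and 92.5 CPM and at most 0.785 CPM in oligodendrocytes, astrocytes and OPC. MEF2C was at 4879 and 4229 CPM and was seen in 98.3% of thinned microglial nuclei. Astrocytes held 116 and 137 CPM of it, and endothelial nuclei 461 CPM with both animals pooled. IKZF1 was at 724 and 684 CPM, RUNX1 at 243 and 226 CPM and REL, an NF-kappaB subunit, at 415 and 364 CPM, all with at most 9.95 CPM in oligodendrocytes, astrocytes and OPC. All 5 were called higher than each of the other 4 subclasses.

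FLI1 was also called higher, at 654 and 643 CPM, but endothelial nuclei had more, 1319 and 1054 CPM, as they did of ETS1 (742 and 363 CPM against 204 and 206 CPM in microglia). NFATC2 was at 1152 and 1027 CPM in microglia and 568 and 395 CPM in oligodendrocytes. MAF was at 219 and 149.9 CPM. IKZF2 was the 1 factor called lower, at 24.5 and 25.5 CPM against 284 and 280.1 CPM in astrocytes, a call that was lost after thinning.

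The list of CSF1 and TGF-beta survival signals held 13 tested genes, 7 of them higher and 3 lower (median 1.26, floor 1.37). Those called higher included CSF1R and NRROS, given above, TGFBR2 at 694 and 732 CPM against 87.8 and 65.4 CPM in oligodendrocytes, TGFBR1 at 141 and 140.3 CPM against 57.4 and 54.7 CPM in OPC, and SMAD3 at 569.5 and 553 CPM against 243 and 266 CPM in astrocytes. ITGAV, the integrin chain that frees latent TGF-beta, was at 590.3 and 733 CPM, whereas its partner ITGB8 was called lower, at 17.0 and 4.78 CPM against 392 and 347 CPM in OPC. CD47, the signal that restrains engulfment, was lower as well, at 62.2 and 82.9 CPM against 212 and 198 CPM in OPC, and CD200, the ligand of an inhibitory microglial receptor, was at 1.89 and 4.78 CPM against 659.6 and 1019.6 CPM in endothelial nuclei. ITGB8, CD47 and CD200 were the 3 members called lower. CD200 was not below astrocytes, at 3.46 CPM in microglia and 3.18 CPM in astrocytes with both animals pooled. ITGB8 lost its call after thinning. The ligand TGFB1 was called higher, at 13.2 and 6.38 CPM with 0 and 86.4 CPM in endothelial nuclei, and lost the call with DESeq2 size factors. The receptors FLT3 and KIT and the mediator SMAD7 were not called, FLT3 at 1.89 and 3.19 CPM, KIT at 9.43 and 6.38 CPM and SMAD7 at 37.7 and 23.9 CPM.

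Purinergic, chemokine and lipid receptors were called higher in 10 of 14 tested and lower in none (median 6.03, floor 3.70). P2RY6, the UDP receptor linked to engulfment, was at 496 and 440.1 CPM with at most 5.76 CPM in the 3 larger glial subclasses. ENTPD1, the ectonucleotidase CD39 that hydrolyses ATP and ADP, was at 471 and 482 CPM against 247 and 173 CPM in endothelial nuclei. ADORA3, an adenosine receptor, was at 26.4 and 23.9 CPM, CCR1, a chemokine receptor, at 22.6 and 11.2 CPM, and PTGER4, a prostaglandin E2 receptor, at 15.1 and 39.9 CPM. P2RX4, the ATP-gated channel, was at 9.43 and 22.3 CPM in microglia and 21.9 and 33.8 CPM in oligodendrocytes and was not called.

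Of the immunoreceptor tyrosine signalling list, 22 of 27 tested genes were higher (23 with the animal as a block) and 1 lower (median 5.26, floor 5.39), and 18 higher than each of the other 4 subclasses in the pairwise tests, against 5.12% of all genes. SYK, the kinase that binds phosphorylated ITAM receptors, was at 575 and 566 CPM and at most 8.90 CPM in oligodendrocytes, astrocytes and OPC. Its adaptor BLNK was at 947 and 826 CPM, PLCG2, the phospholipase it activates, at 183 and 203 CPM with 186 and 432 CPM in endothelial nuclei, and BTK at 60.3 and 63.8 CPM. PIK3AP1, a PI3-kinase adaptor, was at 336 and 327 CPM and VAV1, a RAC activator, at 88.6 and 68.6 CPM. FYN, a Src family kinase, was the member called lower, at 106 and 163 CPM against 848 and 778 CPM in astrocytes and 710.0 and 616 CPM in oligodendrocytes. FYN had its lowest mean of all 18 subclasses in microglia. Of 24 listed Fc, Siglec and C-type lectin receptors only 3 were matched by symbol and 1 was tested: FCER1G, the ITAM chain shared by Fc receptors, at 136 and 132 CPM.

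Of 8 complement genes tested, 5 were higher and 3 lower (median 4.28, floor 3.39). C1QA was at 37.7 and 57.4 CPM and C1QC at 77.3 and 95.7 CPM, both subunits of C1q, which tags synapses and debris. C3, the central component, was at 106 and 166 CPM, and CFP, properdin, at 15.1 and 30.3 CPM. No other non-neuronal sum exceeded 17.3 CPM for C3. ITGB2, the beta chain of complement receptor 3, was at 37.7 and 9.57 CPM, while no UMI of ITGAM, the alpha chain of the same receptor, was counted in any microglial nucleus. ITGAM had 0, 1, 2 and 0 UMIs in oligodendrocytes, astrocytes, OPC and endothelial nuclei. The paper found many opossum genes annotated without their untranslated 3′ ends, and whether this lowers the ITGAM count was not tested. The lower genes were the complement regulators of the CSMD family: CSMD1 at 187 and 222 CPM, CSMD2 at 71.7 and 94.1 CPM and CSMD3 at 268 and 327 CPM, against 3432 and 3198 CPM of CSMD3 in OPC. Oligodendrocytes held CSMD1 at 139 and 212 CPM and CSMD2 at 67.1 and 90.0 CPM, and neither was called against them.

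Of 16 phagocytosis and efferocytosis genes tested, 10 were higher and 1 lower (median 2.14, floor 2.20). MERTK, a receptor for phosphatidylserine bridged by GAS6, was at 1233 and 1469 CPM against 329 and 396 CPM in astrocytes. AXL, of the same family, was at 47.1 and 55.8 CPM, and the third member TYRO3 was not called against the mean of the 4, at 15.1 and 23.9 CPM, against 93.3 and 83.0 CPM in oligodendrocytes. The bridging protein GAS6 itself was at 141 and 86.1 CPM in microglia and 41.2 and 397 CPM in endothelial nuclei. STAB1, a scavenger receptor, was at 615 and 635 CPM and the cholesterol exporter ABCA1 at 396 and 400.2 CPM, close to the 332 and 342 CPM in astrocytes. ADGRB1, an engulfment receptor also called BAI1, was the lower member, at 45.3 and 54.2 CPM against 550.4 and 524 CPM in OPC, and MEGF10, an engulfment receptor of astrocytes, was at 3.77 and 7.97 CPM against 165 and 155 CPM in astrocytes. MEGF10 was not called against the mean of the 4 but was called lower against oligodendrocytes, astrocytes and OPC one by one.

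**Figure D4:**
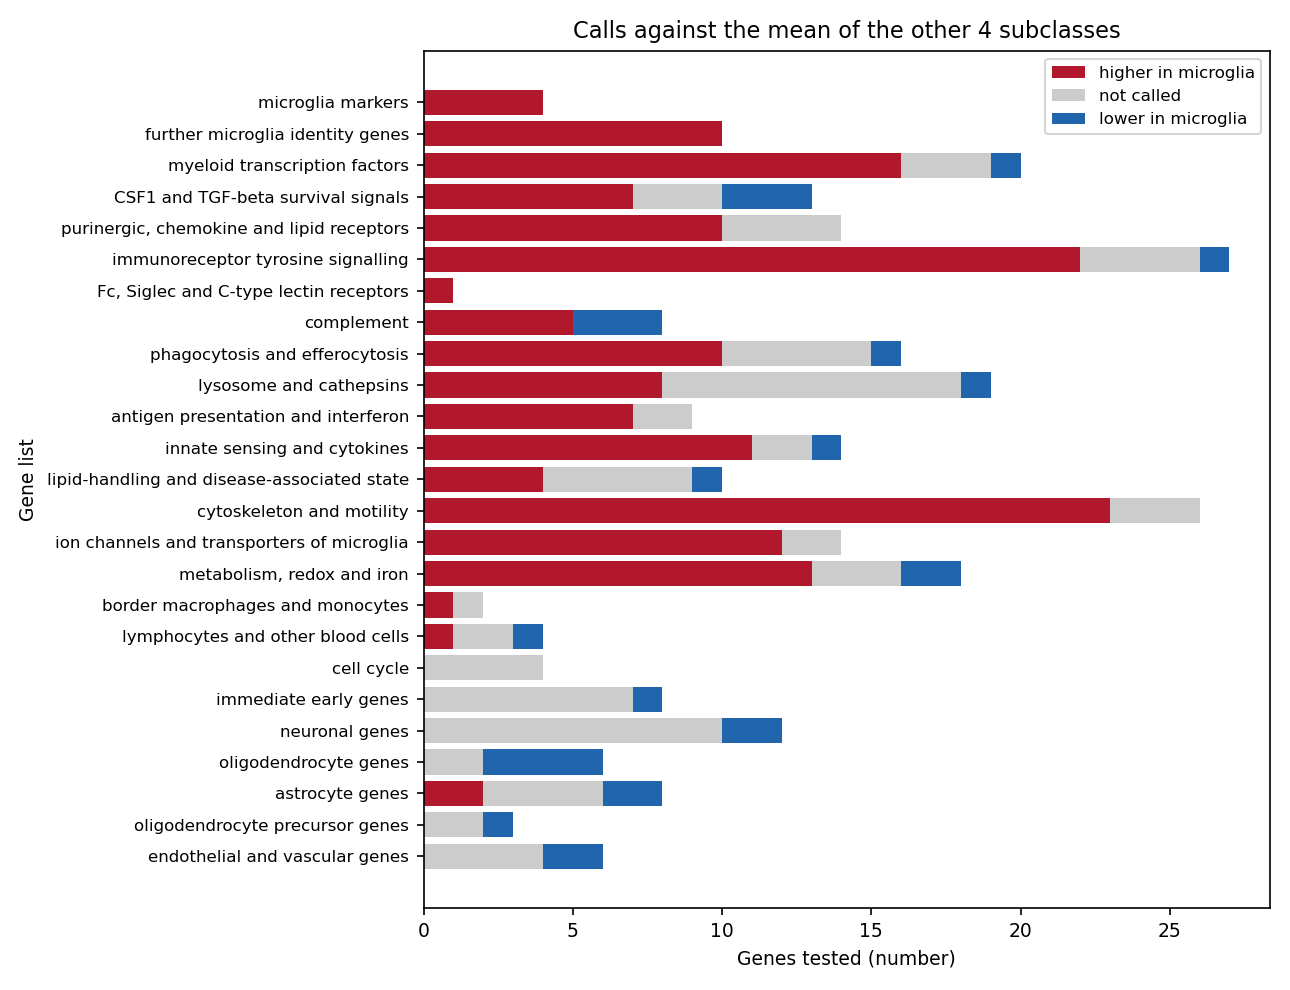
Number of tested genes of each list called higher, lower or neither in microglia against the mean of the other 4 non-neuronal subclasses (adjusted p under 0.05). All 10 further identity genes and 23 of 26 cytoskeleton genes are higher, 8 of 19 lysosome genes are, and none of the cell cycle or oligodendrocyte genes is, against 18.5% of all genes tested.

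Of 19 lysosomal and cathepsin genes tested, 8 were called higher, with 1 lower and 10 not called (median 1.32, floor 0.79). LAPTM5, a lysosomal membrane protein of blood cells, was at 253 and 284 CPM with at most 9.33 CPM in the 3 larger glial subclasses. LAMP1 was at 202 and 199 CPM in microglia and 74.4 and 94.3 CPM in astrocytes. LAMP2 was not called, at 20.7 and 27.1 CPM against 92.5 and 95.8 CPM in oligodendrocytes, and neither was NPC1, a cholesterol transporter, at 86.7 and 112 CPM against 434 and 393 CPM. CTSB was the lower member at 43.4 and 51.0 CPM, against 88.2 and 142 CPM in OPC. Progranulin (GRN) was at 3.77 and 9.57 CPM and was not called. In the pairwise tests 2 of the 19 were higher than each of the other 4 subclasses, against 5.12% of all genes.

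Of 9 antigen presentation and interferon genes tested, 7 were higher and none lower (median 1.64, floor 1.76). CD74, the invariant chain of MHC class II, was at 145 and 187 CPM with at most 6.07 CPM in the 3 larger glial subclasses, HLA-DMB, a peptide loader of class II, was at 30.2 and 54.2 CPM and CIITA, the class II transactivator, at 30.2 and 25.5 CPM. B2M, the light chain of class I, was at 56.6 and 46.2 CPM and endothelial nuclei held 124 and 207 CPM, a difference that was not called. HLA-DRA, the class II alpha chain, had no UMI in microglia of either animal and 9 UMIs in all other non-neuronal nuclei together. As for ITGAM, whether the annotation lowers this count was not tested. Interferon-induced RSAD2 was at 3.77 and 4.78 CPM and was not called. CD74 was called higher than each of the other 4 subclasses, whereas HLA-DMB and CIITA were not called against endothelial nuclei.

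Innate sensing and cytokine genes were higher in 11 of 14 tested and lower in 1 (median 3.11, floor 2.97). The count of higher genes was 10 with the animal as a block, 9 with DESeq2 size factors or the DESeq2 test, and 8 of 12 tested after thinning. IL6R, the interleukin-6 receptor, was at 686 and 855 CPM against at most 4.19 CPM in oligodendrocytes, astrocytes and OPC. TNF was at 81.1 and 87.7 CPM, with no more than 0.622 CPM in any other non-neuronal sum. TLR8 was at 43.4 and 62.2 CPM, TLR2 at 24.5 and 20.7 CPM and TLR4 at 13.2 and 12.8 CPM. IL1RAP, a co-receptor for interleukin-1, was the lower member at 18.9 and 23.9 CPM against 214 and 224 CPM in OPC. It was not below astrocytes, at 21.6 CPM in microglia and 19.7 CPM in astrocytes with both animals pooled. IL10 had no UMI in microglia of either animal.

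Genes of lipid handling and of the disease-associated state were called higher in 4 of 10 tested and lower in 1, CTSB, or in 4 without endothelial nuclei (median 1.37, which turned to -0.04 at the floor and -0.17 with endothelial nuclei left out). APOE was at 2838, 2939, 4054 and 4212 CPM in libraries 1A, 1B, 2A and 2B, above the 1381 and 2096 CPM of astrocytes in animals 1 and 2, and 89.7% of thinned microglia against 67.7% of astrocytes held a UMI. IGF1 was at 117 and 70.2 CPM and AXL was given above. Of other genes of that state, SPP1 was at 3.77 and 1.59 CPM, GPNMB at 7.54 and 3.19 CPM and LGALS3 at 7.54 and 7.97 CPM, and LPL had no UMI in either animal. With the 1157419 microglial UMIs of both animals, no UMI allows up to 2.59 CPM. PPARG was called higher, at 41.5 and 28.7 CPM, yet astrocytes held more of it, 181 and 147 CPM, and the call was lost with DESeq2 size factors, under the DESeq2 test, after thinning and with endothelial nuclei left out.

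Cytoskeleton and motility genes were called higher in 23 of 26 tested and lower in none (median 3.91, floor 3.45). ARHGAP15 was at 4712, 4934, 4199.9 and 4028 CPM in the 4 libraries, against at most 18.01 CPM in the 3 larger glial subclasses. DOCK2 was at 1903 and 1933 CPM against at most 34.8 CPM there. DOCK10 and FMNL2 were shared with oligodendrocytes, DOCK10 at 1018 and 1111 CPM against 798 and 838 CPM and FMNL2 at 1167 and 1035 CPM against 1112 and 1074 CPM. LCP1, the leukocyte plastin, was at 385 and 419 CPM, CORO1A, a coronin, at 77.3 and 76.5 CPM and RAC2, the RAC form of blood cells, at 45.3 and 63.8 CPM. ITGA4, an integrin chain of circulating leukocytes, was at 13.2 and 27.1 CPM and was not called, with 255 and 158 CPM in oligodendrocytes.

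Ion channels and transporters were called higher in 12 of 14 tested (median 2.45, floor 2.40), and 3 of the 14 exceeded each of the other subclasses in the pairwise tests, against 5.12% of all genes. SLCO2B1, an organic anion transporter, was at 1656 and 1461 CPM in microglia and 866 and 380.2 CPM in endothelial nuclei. SLC1A3, the glutamate transporter GLAST, was at 1543 and 987 CPM, below the 3374 and 3076 CPM of astrocytes and above the 391 and 339.7 CPM of OPC. SLC9A9, an endosomal sodium-proton exchanger, was at 981 and 1072 CPM in microglia and 759 and 735 CPM in OPC. KCNJ2, the inward rectifier Kir2.1, was at 54.7 and 65.4 CPM, HVCN1, the proton channel that serves the oxidative burst, at 18.9 and 28.7 CPM, and the iron and manganese transporter SLC11A1 at 90.5 and 119.6 CPM. KCNA3, the potassium channel Kv1.3, was at 3.77 and 0 CPM and was not called.

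Of 18 metabolic, redox and iron genes tested, 13 were higher and 2 lower (median 5.27, floor 3.89). TBXAS1 was at 2229.9, 2328, 2254 and 2271 CPM in the 4 libraries with at most 7.29 CPM in the 3 larger glial subclasses. HPGDS, the haematopoietic prostaglandin D synthase, was at 268 and 254 CPM and ALOX5AP, which presents arachidonate to 5-lipoxygenase, at 177 and 156 CPM. Subunits of the phagocyte oxidase were higher too, CYBB at 71.7 and 68.6 CPM, CYBA at 179 and 136 CPM, NCF1 at 141 and 128 CPM and NCF4 at 28.3 and 35.1 CPM. The glycolytic genes HK2, at 139.6 and 123 CPM, and PFKFB3, at 404 and 320.5 CPM, were higher, and LDHA was not called at 24.5 and 9.57 CPM. MGLL, the lipase that breaks down the endocannabinoid 2-AG, was lower, at 13.2 and 30.3 CPM against 846 and 882 CPM in astrocytes and 10.4 and 7.85 CPM in oligodendrocytes, and so was the transferrin receptor TFRC, at 7.54 and 9.57 CPM against 515 and 397 CPM in endothelial nuclei, without which it was not called. TBXAS1, HPGDS, ALOX5AP, CYBB, CYBA and NCF1 were called higher than each of the other 4 subclasses.

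The 10 genes named by the rule for lower genes had at least 20 CPM in every other non-neuronal sum and less in microglia; 227 genes met it. FGFRL1, a decoy receptor for fibroblast growth factors, was at 0 and 1.59 CPM in microglia of animals 1 and 2 against at least 29.3 CPM in each other sum. CNKSR3, a scaffold of aldosterone signalling, was at 0 and 3.19 CPM against at least 41.1 CPM, and PRRG1, a membrane protein with a Gla domain, was at 7.54 and 6.38 CPM against at least 65.3 CPM. Each of these 3 lay many times below the lowest of the 8 other sums in both animals.

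ZNF521, a zinc finger factor of progenitor cells, was at 11.3 and 6.38 CPM in microglia and 445 and 445 CPM in OPC. KANK1, an adaptor at focal adhesions, was at 18.9 and 6.38 CPM against 596 and 518 CPM in OPC, and ABTB2 was at 17.0 and 7.97 CPM against 437 and 454 CPM. SOX13 was at 3.77 and 6.38 CPM against 412 and 380.2 CPM in endothelial nuclei. APBB2, a binding partner of the amyloid precursor protein, was at 32.1 and 49.4 CPM against at least 412 CPM in each other sum (log2 fold change -3.86 ± 0.21, ± SE). NAALADL2 was at 5.66 and 6.38 CPM and RECK, an inhibitor of matrix proteases, at 3.77 and 7.97 CPM. Over all 18 subclasses, 3 of the 10 genes had their lowest mean in microglia.

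Markers of other cells were examined in the microglial sums. Among border macrophage and monocyte genes, 6 of 18 listed symbols were matched; MRC1 was at 0 and 1.59 CPM, LYVE1 at 3.77 and 0 CPM and F13A1 at 0 and 1.59 CPM, whereas STAB1 was given above, and the summed level of the list, 622 and 638 CPM in animals 1 and 2, was almost wholly STAB1. The lymphocyte list summed to 39.6 and 65.4 CPM over 13 matched genes. CD4 was its 1 member called lower, with no UMI in microglia and 9.48 and 12.4 CPM in OPC, a call that was lost without doublet calls. EBF1, a B cell and mural cell factor, was called higher against the mean of the 4, but its UMIs came from animal 2 alone (0 and 23.9 CPM). Endothelial nuclei held 1525 and 1071 CPM of it and the other 3 subclasses at most 0.818 CPM. Without animal 2 its log2 fold change turned to -2.86. Cell cycle genes summed to 17.0 and 9.57 CPM, and none of the 4 tested was called. With the animal as a block ASPM, a spindle protein of dividing cells, was called lower (log2 fold change -2.41, adjusted p = 0.0445), as it was with no filter and without endothelial nuclei, at 3.77 and 0 CPM in microglia.

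Of 12 neuronal genes tested, none was called higher and 2 were called lower, CSMD1 and GRIA1, neither of them against oligodendrocytes. SNAP25, a synaptic protein of neurons, was at 139.6 and 215 CPM in microglia, 118 and 164 CPM in oligodendrocytes, 81.6 and 119 CPM in astrocytes and 351 and 430.5 CPM in OPC. Animal 2 had the higher level in each of these subclasses. Oligodendrocyte genes summed to 469.6 and 561 CPM against 15796 and 16108 CPM in oligodendrocytes, mostly MBP, at 373 and 408 CPM in microglia and 166 and 203 CPM in OPC. A UMI of MBP was seen in 19.4% of thinned microglia, against 5.51% of astrocytes and 6.85% of OPC. MBP was called higher in microglia than in OPC and was not called against astrocytes, which held 274 and 139.6 CPM. What RNA of other cells adds to the microglial sums was not tested.

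The astrocyte list summed to 2352 and 1622 CPM, and 2 of its 8 tested genes were called higher. These were SLC1A3 and ADGRV1, a large adhesion receptor, at 541 and 443 CPM in microglia, 55.6 and 74.1 CPM in astrocytes and 674 and 676 CPM in OPC. Other astrocyte genes did not follow them: SLC1A2 was at 204 and 137 CPM against 15454 and 14791 CPM in astrocytes, and AQP4 at 18.9 and 6.38 CPM against 197 and 201 CPM. OPC genes summed to 67.9 and 31.9 CPM and endothelial genes to 69.8 and 62.2 CPM in microglia. The 13 matched immediate early genes summed to 86.7 and 94.1 CPM in microglia of animals 1 and 2, 23.7 and 25.4 CPM in oligodendrocytes, 60.8 and 101 CPM in astrocytes, 71.1 and 65.3 CPM in OPC and 309 and 553 CPM in endothelial nuclei. Of 8 tested, none was called higher and JUN was called lower (median 0.44), at 9.43 and 6.38 CPM in microglia and 61.8 and 69.1 CPM in endothelial nuclei (log2 fold change -1.23 ± 0.44, adjusted p = 0.0415 in edgeR). JUN lost this call without endothelial nuclei (-0.75, adjusted p = 0.177), with no filter (adjusted p = 0.0516) and after thinning (adjusted p = 0.256). Of the others, FOS at 3.77 and 1.59 CPM and EGR1 at 0 and 17.5 CPM.

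The 2 animals were compared within microglia with their libraries side by side, which is a description with 1 animal against 1 and no test. Among 4964 genes with at least 20 CPM and 10 UMIs in each library of the higher animal, 79 (1.59%) were at least 2-fold higher in animal 1 and 105 (2.12%) in animal 2 with the libraries of the 2 animals not overlapping. At any ratio, 1004 genes (20.2%) and 1133 (22.8%) had libraries without overlap. With 2 libraries per animal, such an order also arises often where the animals do not differ, so these shares do not count differing genes. With 5 CPM added to both animals before the ratio, the 184 genes became 121. With every library of 4 subclasses drawn to 249096 UMIs, 3.58% and 3.42% of genes with at least 20 UMIs differed 2-fold between the microglial libraries of one animal, against 5.11 to 5.95% between animals. Oligodendrocytes gave 2.80 to 3.30% within and 5.23 to 6.31% between animals. Astrocytes gave 3.36 to 3.42% within and 5.02 to 5.34% between animals, and OPC 2.66 to 3.45% within and 3.82 to 4.67% between.

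For each animal the 5 genes with a symbol and the largest ratio in its favour are named. They were led by GRAP, a GRB2-like adaptor, with 3 UMIs in animal 1 and 66 in animal 2, or 10.7, 0, 99.1 and 111 CPM in libraries 1A, 1B, 2A and 2B. Endothelial nuclei held GRAP at 41.2 and 34.6 CPM in animals 1 and 2. MTSS1, which bends membranes for actin protrusions, was at 78.2, 104, 301 and 422 CPM, with 287 and 353 CPM in oligodendrocytes, 1056 and 1009 CPM in astrocytes and 309 and 605 CPM in endothelial nuclei of animals 1 and 2. SHB was at 7.11, 24.1, 52.9 and 80.1 CPM, ARAP2 at 24.9, 0, 56.2 and 43.1 CPM and MANSC4 at 10.7, 8.03, 33.0 and 37.0 CPM.

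In the other direction, CHEK2, the DNA damage checkpoint kinase, was at 270.3, 277, 69.4 and 77.0 CPM in libraries 1A, 1B, 2A and 2B, and CTSZ, a cathepsin, at 74.7, 112, 16.5 and 33.9 CPM. TC2N was at 46.2, 40.1, 6.61 and 9.24 CPM and MEGF11 at 88.9, 56.2, 13.2 and 15.4 CPM, a gene with 1339 and 1382 CPM in OPC. SEZ6L was at 35.6, 52.2, 16.5 and 6.16 CPM against 517 and 463 CPM in OPC. Beside CTSZ, 3 genes of the lists met the 2-fold rule, which 1.59% of genes met in favour of animal 1 and 2.12% in favour of animal 2. SLA, an adaptor that dampens immunoreceptors, was higher in animal 2 (37.7 and 131 CPM in animals 1 and 2), as was ST18, an oligodendrocyte gene (30.2 and 65.4 CPM), and the iron exporter SLC40A1 was higher in animal 1 (66.0 and 20.7 CPM). None of the 4 markers and none of the 8 further identity genes above the minimum met it. At any ratio, libraries without overlap were higher in animal 2 for 5 of 8 neuronal genes above the minimum, 4 of 6 complement genes, 3 of 7 innate sensing genes and 10 of 25 immunoreceptor signalling genes, against 22.8% of all genes. In animal 1 they were higher for 9 of 19 myeloid transcription factors, 4 of 9 ion channels and transporters and 4 of 11 metabolism genes, against 20.2% of all genes. Cytoskeleton genes had 5 of 24 in each direction and phagocytosis genes 2 of 12 in animal 1 and 3 in animal 2. The lists given here were picked after their counts were seen.

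**Figure D5:**
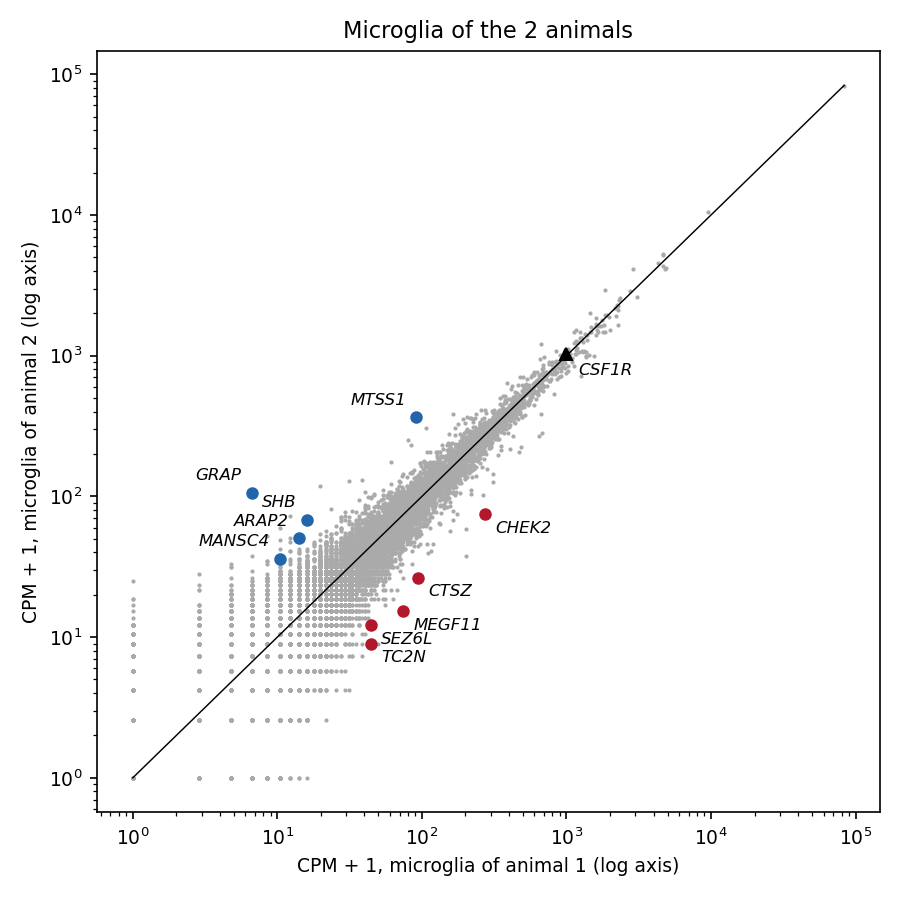
CPM + 1 of each gene in microglia of animal 1 against animal 2 on log axes, for all genes tested; the 10 named genes are marked. Of the named genes GRAP lies farthest from the diagonal, at 5.66 and 105 CPM, while CSF1R lies on it at 986 and 1020.5 CPM.

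Among the 2315 nuclei that passed the quality limits and carry no subclass, 14 held a UMI of at least 3 of the 4 markers, against 207 of 723 (28.6%) labelled microglia. All 14 lay in non-neuronal clusters that the authors had set aside as doublets, 10 were also doublet calls, and their median was 9726.5 UMIs. Of the labelled neurons, 9 of 20150 glutamatergic and 3 of 4347 GABAergic nuclei held 3 or more, at median depths of 8088 and 6317 UMIs. None of the 1006 nuclei in clusters set aside as ambiguous held 3 or more.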

How the data were processed

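Nuclei of V1 were sequenced with 10x 3′ chemistry in 4 libraries from 2 animals. Per the labels, the authors counted UMIs with Cell Ranger 6.1.1, while the headers of the deposited matrices name 7.1.0, and which version made the counts is not settled. Reads were placed on the opossum genome ASM229v1 with introns included, after the authors had extended the 3′ ends of many annotated genes, so that counts depend on those extensions. The deposited counts are raw UMIs per gene and nucleus, 55625042 to 69706055 per library. The deposited doublet score of each nucleus, from the authors' doublet caller, is a fraction between 0 and 1. Quality calls, clusters, subclasses and types were taken as deposited: of 36558 barcodes 35079 passed, with 701 to 6487 genes and at most 39921 UMIs, and 2315 of these carry no subclass.

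Counts of each subclass were summed per animal, since nuclei are not replicates, and the 10 non-neuronal sums were fitted with edgeR 4.0.16 (R 4.3.3; TMM scaling, its low-count filter, quasi-likelihood test), with Benjamini-Hochberg adjustment over 13483 genes and a threshold of 0.05. On simulated counts for this comparison with 200 of 13483 genes changed, 67% were recovered with 6 false calls. The simulated sums shared a single profile and a fixed spread, apart from the changed genes. Those were drawn from genes with enough expected microglial counts. In the data 29.7% of genes were called and the other subclasses differ among themselves, so these figures do not carry over. Fold changes are on the log2 scale; levels are CPM of the sum and depend on gene length, so that genes were not ranked against each other by level. Shares of nuclei were also computed after thinning to 1000 UMIs. Genes were named from symbols in the deposited files, which 11590 of 30800 genes (37.6%) carry; the rest could not be named. No gene sequence of this build was at hand.

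Named genes were the 20 largest log2 fold changes higher (at least 20 CPM in microglia of both animals, higher than each other subclass of the same animal) and the 10 lower (at least 20 CPM in every other sum, lower than each); between animals, the 5 largest ratios each way. Genes of the lists may be named as well; a few genes are not reported here. The members and lists were chosen with earlier results of these data known. The sums of an animal are paired because they come from the same animal; the deviations of same-animal sums from their subclass means correlated at 0.03 to 0.19 over genes. Alternatives covered the scaling, DESeq2 1.42.0, the filter, the animal as a block, equal numbers of nuclei, doublet calls, thinning, endothelial nuclei left out and single animals. Precision is limited by the 2 animals and by the 48514 and 57864 endothelial UMIs.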

Additional observations from a re-analysis of the deposited data

Results flagged for a closer look

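Of the 2315 nuclei that passed the quality limits without a subclass, 14 held a UMI of at least 3 of the 4 microglia markers, which made them stand out because they lie outside every comparison above. So did 1 of the 7544 other labelled non-neuronal nuclei, 9 of 20150 glutamatergic and 3 of 4347 GABAergic nuclei. They came 3, 2, 7 and 2 from libraries 1A, 1B, 2A and 2B. Together they held 207 CPM of CSF1R and 221 CPM of LYN beside 993 CPM of SNAP25 and 1628 CPM of SYT1, both neuronal genes. Of the 1479 barcodes that failed the quality limits, 8 (0.541%) held at least 3 of the markers, which is likewise a signal outside the comparisons. Of these 8, 7 had at most 700 genes, and 2, 3, 0 and 3 came from libraries 1A, 1B, 2A and 2B. Adding the failed barcodes was chosen after seeing the data.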

How the results depend on the processing

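The share of microglia was 2.20% with all labelled nuclei as denominator, and 7.08 to 10.9% with either animal alone. With equal numbers of nuclei per sum, as few as endothelial nuclei allow, 2707 genes could be tested; 560 were higher and 400 lower, and 999, 1146, 1170 and 803 were called against oligodendrocytes, astrocytes, OPC and endothelial nuclei. Without endothelial nuclei 2948 genes were lower. Between the animals, 121 genes were called with 5 CPM added, and 1 nucleus without a subclass held all 4 markers in place of 14, while 8 of the failed barcodes held 3 or more. Against endothelial nuclei 723 genes were higher and 899 lower under DESeq2, and 49 in place of 79 genes were higher in animal 1 after thinning; the other alternatives for these totals stayed within 1.5 times. With 1 animal at a time, which allows no test, 2492 to 2493 of the genes called higher and 1489 to 1501 of those called lower kept their direction, as did 5162 to 5171, 5669 to 5673, 5647 to 5648 and 1843 to 1850 of those called in the pairwise tests in the order above. EBF1 was at -2.86 with equal nuclei, which is no estimate (SE 6187, adjusted p = 0.999696 in edgeR), at -2.86 without animal 2 and at 1.95 without animal 1; the cause was not tested. Values of single animals are differences of log2(CPM + 1), another measure than the fitted fold change. Without animal 1, 97 of the 149 called genes in the text lay farther from the fit than the spread between the animals. Without animal 2, 92 did, with EBF1 reversed. These counts mix the change of measure with the loss of an animal, which were not told apart. A gene called with 2 animals has its direction nearly fixed in each.

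With the animal as a replicate block, 2582 genes were higher and 1606 lower, and the block changed the call of none of the 149. Of these, PPARG and TGFB1 lost their calls under the other scaling, MANSC4, MEGF11 and PPARG under DESeq2, JUN, PPARG and TFRC without endothelial nuclei, JUN with no filter, CD4 and ST18 without doublet calls, and IKZF2, ITGB8, JUN, MANSC4 and PPARG after thinning. With equal nuclei 9 of the 87 that could be tested did. Of genes not called, ASPM was called lower with the block, with no filter and without endothelial nuclei (adjusted p = 0.0358 to 0.0486). A gene at 0 in endothelial nuclei can lie at up to 28.2 CPM there, which limits every fold against them.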

Other observations

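Genes outside the lists were also held by microglia; those given here were chosen after their values were seen, and each was called higher against the mean of the 4 in the edgeR test. ATP8A2, a phospholipid flippase known from neurons, was at 9503 and 10554 CPM in animals 1 and 2, with 2593 and 2008 CPM in Lamp5 as the next of the 18 subclasses. EGF, the epidermal growth factor, was at 1354 and 992 CPM, with 81.1 and 73.4 CPM in OPC next. Both were far above every neuronal subclass.

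Some of the genes picked in this way are known from neuronal development or excitability, and those given here other than PIEZO2 had their highest mean in microglia. How many such genes did not was not counted, and of the 12 neuronal genes of the lists none was called higher. TENM3, a teneurin that guides visual wiring, was at 2319.6 and 2486 CPM, with 1102 and 878 CPM in IT_D next. UNC80, a subunit of the NALCN leak channel complex, was at 2012 and 1529 CPM, with 502 and 464 CPM in L5NP next, and KCNG2, a modifying potassium channel subunit, was at 1018 and 777 CPM, with 132 and 152 CPM in Astro next. SLC24A4, a potassium-dependent sodium-calcium exchanger, was at 1767 and 1803 CPM, with 144 and 287 CPM in IT_D next. TRPC6, a diacylglycerol-gated cation channel, was at 268 and 223 CPM, with 26.2 and 51.9 CPM in IT_A next. PIEZO2, the mechanically gated channel, was at 396 and 367 CPM and ranked behind 2 neuronal subclasses, of which IT_D held most, at 1496 and 1393 CPM.

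Among transcription factors, SALL3 was at 421 and 485 CPM, with 121 and 131 CPM in OPC next, beside SALL1 given above, and BNC2 was at 699.6 and 604 CPM, with 82.5 and 0 CPM in Endo next. WDFY4, needed for cross-presentation in dendritic cells, was at 788 and 907 CPM, with 97.4 and 56.4 CPM in L5PT next. What these levels mean for opossum microglia was not tested.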
